A study of Mus musculus with 6 samples.

Results

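The cytosolic ribosomal protein genes were taken by symbol, as the genes named Rpl or Rps with a number and at most 1 further letter a, x or l, the stalk genes Rplp0 to Rplp2, and Rpsa; genes named as pseudogenes were left out. The rule found 83 genes among the 55951 genes of the table, 30 for proteins of the small subunit, 46 for proteins of the large subunit and 7 like-named paralogs (Rpl3l, Rpl6l, Rpl10l, Rpl32l, Rpl39l, Rps4l and Rps27l), of which GENCODE M21 annotates Rpl6l, Rpl32l and Rps4l as processed pseudogenes. Their RNA was measured by poly(A)-selected RNA-seq in splenic cells sorted by CD3, CD8, CD44 and the absence of CD4 and CD62L as CD8+ effector memory T cells in an ovalbumin-induced model of asthma. The S100A4-positive group was EGFP-positive and the S100A4-negative group EGFP-negative, with 3 libraries each. All cells came from mice with an S100A4-EGFP reporter on a C57BL/6 background, so both groups carry the reporter and the allergen model, and EGFP stands for the activity of the S100A4 reporter. The labels do not say whether replicates came from separate animals, so p-values measure only the spread between these samples, which may be technical.

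The cytosolic ribosome is built of a small subunit, which reads the mRNA, and a large subunit, which forms the peptide bonds, and most ribosomal proteins are needed in equal number beside the rRNAs. In mammals most ribosomal protein mRNAs start with a C followed by a run of pyrimidines, the 5′ terminal oligopyrimidine (TOP) motif, through which mTORC1 and LARP1 set their translation together. In T cells ribosome production rises on activation, under MYC and mTORC1, and is low in resting cells.

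The libraries held 14925260 to 18660188 recovered reads. S100a4 itself, the calcium-binding protein that names the groups, had 1.27, 4.02 and 1.52 FPKM in S100A4-positive replicates 1 to 3, against 0, 0.405 and 0.129 FPKM in S100A4-negative replicates 1 to 3, which goes with the labels at a low level. Differences were called at an adjusted p under 0.05 by limma, which called 19.0% of the 13241 tested genes higher and 43.4% lower in S100A4-positive libraries. The cell type of the labels was less clear. The 14 T cell markers summed to 410 to 562 FPKM in S100A4-positive libraries, against 2570 to 3090 FPKM in S100A4-negative libraries, and all 14 were called lower. The 19 monocyte and macrophage markers summed to 9680 to 10500 FPKM in S100A4-positive libraries, against 680 to 929 FPKM in S100A4-negative libraries, and all 19 were called higher. Of other lists, 8 of 11 B cell markers, 11 of 12 neutrophil markers and 1 of 7 erythroid and platelet markers were called lower, 7 of 8 plasma cell markers were called lower and 1 higher, and 7 of 9 dendritic cell markers were called higher. No T cell or macrophage marker was at 0 in any library. These markers move with the group beside every ribosomal protein result below, and their part in the results was not tested. In bulk samples, fewer cells of a type and less RNA per cell cannot be told apart.

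The start sites of the members were read for the pyrimidine run of the TOP motif. RefSeq start-site windows (GRCm38.p6) matched 61 of the 83 members. In 14 of the 61 (23.0%) the annotated first base was a C followed by at least 4 pyrimidines, against 813 of 27025 genes (3.01%). The letters CTCTTTC lay on the gene's strand between 250 bases before and 50 bases after the start in 13 members (21.3%), against 4.6% of all genes, and on the opposite strand in 4 members (6.56%), against 4.91% of all genes. A run that starts some bases beside the annotated base is not counted, so absence in a window says only that the letters are not at that base. The following members have the run, in capitals, at the annotated start, the 16th of the 30 bases shown. Rps10, Rps15a, Rps18, Rps6 and Rpl14 are shown because they were called lower, and Rps27, Rpl28, Rpl35 and Rpl15 because they have the same run without a call.
Rps10 (chr17:27635230-27635259, minus strand): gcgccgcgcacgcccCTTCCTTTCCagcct
Rps15a (chr7:118116133-118116162, minus strand): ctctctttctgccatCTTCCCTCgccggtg
Rps18 (chr17:33955651-33955680, minus strand): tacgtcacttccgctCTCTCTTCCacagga
Rps6 (chr4:86857353-86857382, minus strand): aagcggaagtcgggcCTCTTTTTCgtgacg
Rpl14 (chr9:120571502-120571531, plus strand): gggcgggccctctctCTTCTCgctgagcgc
Rps27 (chr3:90213634-90213663, minus strand): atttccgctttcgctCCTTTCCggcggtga
Rpl28 (chr7:4792950-4792979, plus strand): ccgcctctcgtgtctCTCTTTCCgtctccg
Rpl35 (chr2:39005117-39005146, minus strand): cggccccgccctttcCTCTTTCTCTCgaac
Rpl15 (chr14:18270972-18271001, minus strand): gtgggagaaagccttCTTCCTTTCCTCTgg
The following members have no such run at the annotated start and are shown because Rpl12 and Rpl13a had the lowest fold changes of all members, Rplp0 the highest level, and Rpl10 and Rps27l fold changes above 0.
Rpl12 (chr2:32961697-32961726, plus strand): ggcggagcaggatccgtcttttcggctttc
Rpl13a (chr7:45128731-45128760, minus strand): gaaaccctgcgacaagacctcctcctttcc
Rplp0 (chr5:115559452-115559481, plus strand): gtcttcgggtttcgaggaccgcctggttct
Rpl10 (chrX:74270801-74270830, plus strand): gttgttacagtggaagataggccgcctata
Rps27l (chr9:66946071-66946100, plus strand): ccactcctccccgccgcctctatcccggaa
Members with and without the run had close fold changes. Of 13 tested members with the run, 5 were called lower (43.4% of all tested genes were) and the median log2 fold change (S100A4-positive minus S100A4-negative) was -0.49. Of 44 tested members without it, 11 were called lower and the median was -0.47.

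On the FPKM scale, which is per annotated length, ribosomal protein genes were among the most abundant RNAs of both groups. That length is the mean over a gene's annotated transcripts, so the order of the members by level depends on the annotation. Rps3, for example, had 9118 reads in S100A4-positive replicate 1, against 6959 for Rps7, but ranked 43 by level, against 5 for Rps7. The 76 members other than the 7 paralogs had a median level of 663 FPKM over the 6 libraries, against 14.4 FPKM for all tested genes, and 71 of the 76 were at 100 FPKM or more. The highest were Rplp0, the base of the stalk that recruits elongation factors, Rpsa, a small-subunit protein also known as a laminin receptor, Rpl4, which lines the exit tunnel, Rplp1, a stalk protein, and Rps7, a small-subunit protein that also binds MDM2. Rplp0 had 1902, 2357 and 2152 FPKM in S100A4-positive replicates 1 to 3, against 3130, 2712 and 3047 FPKM in S100A4-negative replicates 1 to 3. Rpsa had 1075, 1491 and 1446 FPKM in the S100A4-positive libraries, against 2120, 2013 and 2224 FPKM in the S100A4-negative libraries. The groups did not overlap for either gene. The order of the members by level was much alike in both groups (Spearman's rho 0.96 over the 76 members, a description across genes of the same libraries).

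The other 5 members were listed far below the rest, and each shares exon bases with another annotated gene. Rpl24 had 1.14, 2.19 and 1.56 FPKM in S100A4-positive replicates 1 to 3, against 2.16, 2.17 and 1.55 FPKM in S100A4-negative replicates 1 to 3, which rests on 10 to 20 reads per library. Its groups overlapped. The others under 100 FPKM were Rps10, Rpl13a, Rpl35 and Rpl30, with means of 4.09, 12.1, 54.7 and 79.3 FPKM in S100A4-positive libraries, against 8.46, 23.6, 68.8 and 111 FPKM in S100A4-negative libraries. In all 5, more than 20% of the annotated exon bases lay in another gene as well, which held for 5 of the 71 members at 100 FPKM or more. The latter included Rpl23a (62.3%, or 2.6% on the same strand) and Rpl5 (26.7%, or 2.4% on the same strand). Counting only genes on the same strand, Rpl24, Rpl13a and Rps10 passed 20%, while Rpl30 shared 4.4% and Rpl35 0%. The share on either strand was 47.0% for Rpl24, with the partner Gm28037, 35.4% for Rpl13a, with Gm45713, Snord33 and Mir5121, and 28.7% for Rps10, with RPS10-NUDT3 and Gm15420. Gm28037, Gm45713 and Gm15420 were listed at 0 in every library. How the authors assigned reads in overlapping genes is not given in the sources used here, so the levels of these 10 members are uncertain, and the part of the overlap in them was not tested.

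**Figure D1:**
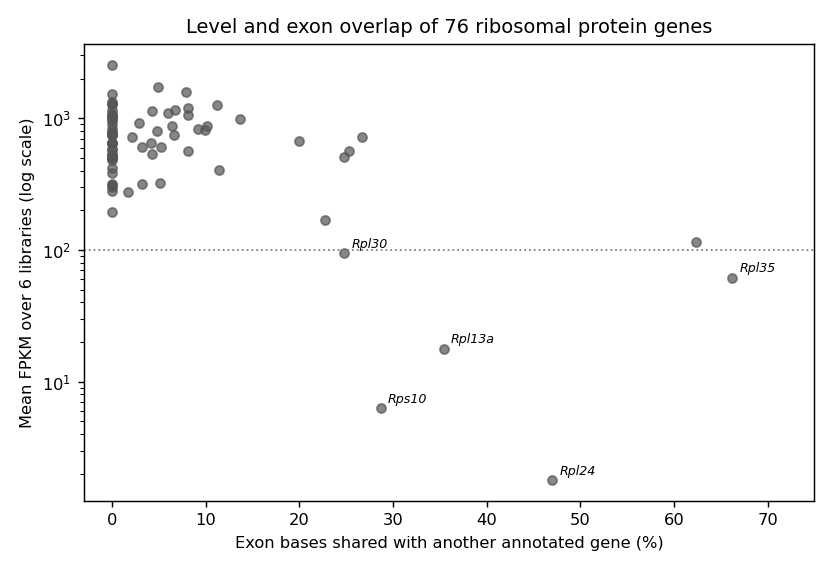
Mean FPKM over the 6 libraries (vertical axis, log scale) against the percent of annotated exon bases shared with another gene (horizontal axis) for the 76 members other than paralogs; each point is a gene, names mark the members below 100 FPKM, and the dotted line is 100 FPKM. All 5 members below the line have more than 20% of their exon bases in another gene.

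As a share of all FPKM, the members took up less of the S100A4-positive libraries on average, but the groups overlapped. The share was 5.39, 8.04 and 7.92% in S100A4-positive replicates 1 to 3, against 7.92, 8.37 and 10.5% in S100A4-negative replicates 1 to 3, with means of 7.12 ± 1.5% and 8.93 ± 1.39% (SD, n = 3 each). The difference of -1.82 percentage points was -0.951 without S100A4-positive replicate 1 and -1.03 without S100A4-negative replicate 3. As a share of recovered reads it was 2.66, 4.03 and 3.99% in the S100A4-positive libraries, against 4.38, 4.72 and 5.64% in the S100A4-negative libraries, and these groups did not overlap. With immunoglobulin genes left out of the sum, the share of FPKM was 5.57, 8.15 and 8.02% in S100A4-positive libraries, against 9.54, 10.2 and 11.6% in S100A4-negative libraries, and the groups did not overlap.

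A single library stood apart among the S100A4-positive ones. S100A4-positive replicate 1 was the lowest of its group in 76 of the 76 members other than paralogs, against 31.8% of all tested genes. S100A4-negative replicate 3 was the highest of its group in 72 of the 76, against 44.8% of all tested genes, and S100A4-negative replicate 1 the lowest in 60, against 40.3%. The same S100A4-positive replicate 1 had the highest sum of neutrophil markers of its group, 1900 FPKM against 582 and 453 FPKM in replicates 2 and 3, and the lowest sum of dendritic cell markers, 501 FPKM against 837 and 998 FPKM. Its plasma cell markers summed to 653 FPKM, against 363 and 360.0 FPKM. The erythroid and platelet markers summed to 57.8 FPKM in this library, against 255 and 200 FPKM in the other S100A4-positive libraries, and to 296 FPKM in S100A4-negative replicate 3, against 66.7 and 81.3 FPKM in S100A4-negative replicates 1 and 2, so the same libraries were lowest and highest of their groups as for the members. Their part in the low ribosomal protein values was not tested. Members tended to lie further below in this library the shorter their annotated length was, with exceptions. Length and the log2 ratio given below had a Spearman's rho of 0.34 over the 76 members, a description across genes of the same libraries. This length is the mean over a gene's annotated transcripts, and the length of the RNA present was not measured. The log2 ratio of replicate 1 to the mean of replicates 2 and 3 had a median of -0.77 in the 25 shortest members (383 to 616 bases), -0.68 in the 25 of middle length and -0.59 in the 26 longest (800 to 1860 bases), while other tested genes of these lengths had medians of -0.14, -0.12 and 0.02. In the S100A4-negative group the ratio of replicate 1 was -0.40, -0.33 and -0.23 for the members and -0.18, -0.16 and -0.07 for the other genes. For the other genes, but not the members, 1 FPKM was added to both terms of the ratio. This draws the ratios of low genes toward 0, so the 2 sets are not measured quite alike.

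**Figure D2:**
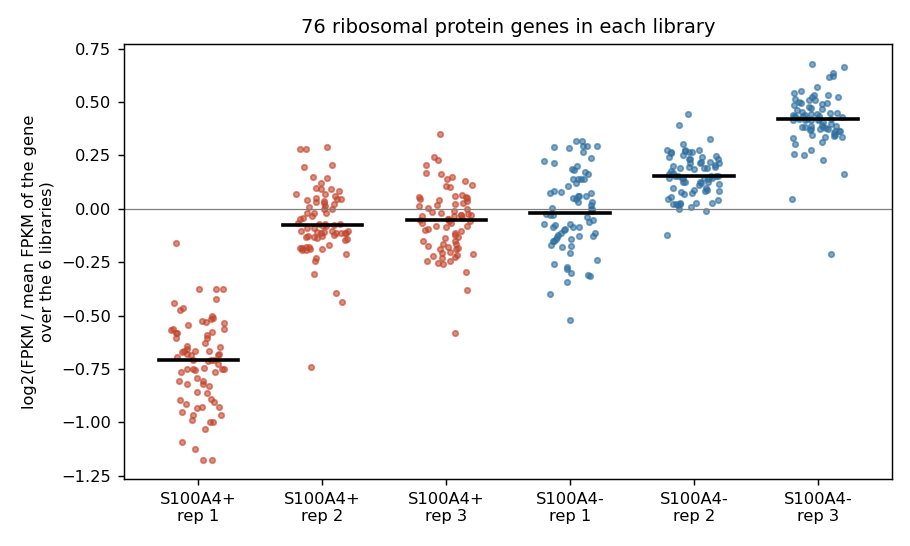
Level of each of the 76 members other than paralogs in each library, as log2 of its FPKM over its own mean across the 6 libraries; points are genes, bars are medians, S100A4-positive libraries are red and S100A4-negative libraries blue. S100A4-positive replicate 1 has the lowest median and S100A4-negative replicate 3 the highest, with S100A4-positive replicates 2 and 3 near S100A4-negative replicate 1.

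Between groups, most members were somewhat lower in S100A4-positive libraries on the deposited FPKM scale, in a narrow band, and the median of all tested genes was shifted the same way. The test was limma on log2(FPKM + 1), with genes of a mean FPKM of at least 1, which takes in 78 members and leaves out 5 paralogs. Of the 78, 2 were called higher (2.56%, against 19.0% of all tested genes) and 21 lower (26.9%, against 43.4% of all tested genes), at a Benjamini-Hochberg adjusted p under 0.05, and 55 were not called. The share of members called is below that of all tested genes in both directions. Groups did not overlap for 2 members higher (2.56%, against 20.9% of all tested genes) and 40 members lower (51.3%, against 49.1%). The log2 fold change was above 0 in 3 of the 78 (32.3% of all tested genes) and below 0 in 75 (67.7% of all tested genes) with a median of -0.48, against -0.36 for all tested genes, but with median-of-ratios scaling 23 of the 78 changed sign and the median was -0.09, against -0.02. The difference between members and all genes was thus -0.12 as deposited. Among the 76 members other than paralogs the quartiles of the fold changes were -0.59 and -0.34, against -0.80 and 0.22 for all tested genes.

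The number of members called differed with the scaling of the libraries. With median-of-ratios scaling 3 members were called lower (24.3% of all tested genes) and 3 higher (27.7%): Rpl12, Rpl13a and Rps10 were lower, and Rpl10, Rps27l and Rps4l higher. The same 6 members were called by limma voom on the recovered reads with the authors' size factors, which called 23.8% of all tested genes lower and 28.1% higher. In the authors' deposited table, 3 members were called higher, which were Rpl3l, Rps27l and Rps4l, and 0 lower. Of the genes tested here, which leave out Rpl3l, that table called 19.8% higher and 13.8% lower. Of the 82 members with a value in the authors' deposited table, 50 had a log2 fold change below 0. The median there was -0.055 for the members tested here, against -0.018 for all genes tested here. Without replicate 1 of both groups, a choice made after seeing the values, 30 members were called lower (40.1% of all tested genes), 19 of them among the 21, and 2 higher (17.7%), with a median of -0.35 for the members and -0.38 for all tested genes. Without S100A4-positive replicate 1 alone, 13 were called lower (42.7% of all tested genes) and 2 higher (19.0%), and the median was -0.26 for the members and -0.37 for all tested genes.

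**Figure D3:**
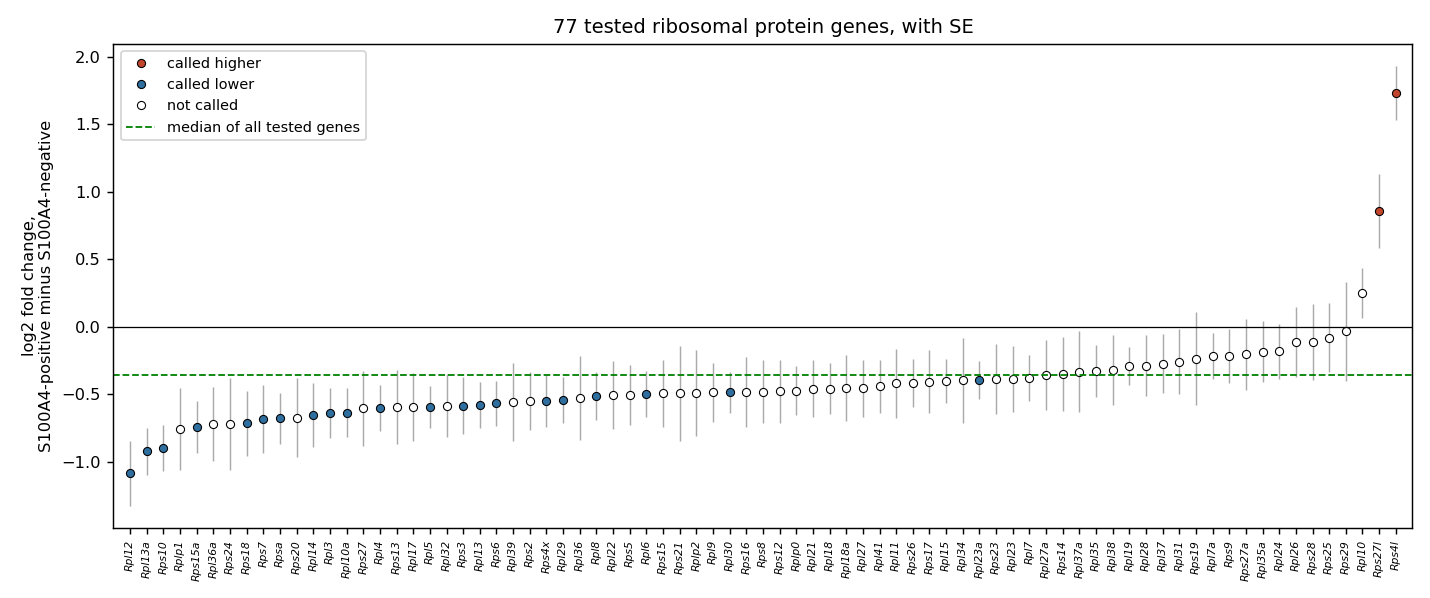
Log2 fold change (S100A4-positive minus S100A4-negative, vertical axis) with its standard error for 77 tested members, ordered from low to high; red points were called higher, blue points lower, open points neither, and the dashed line is the median of all tested genes (-0.36). Most members lie in a band around that line, Rpl12, Rpl13a and Rps10 lie below it, and Rpl10, Rps27l and Rps4l above 0; with median-of-ratios scaling the band centres on -0.09 and 23 members change sign.

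The large subunit held 13 of the 21 members called lower, of its 46, with a median log2 fold change of -0.46. This share is below the 43.4% of all tested genes called lower, whose median was -0.36. Rpl12, which sits at the base of the stalk where elongation factors bind, had 267, 444.5 and 463 FPKM in S100A4-positive replicates 1 to 3, against 711, 792 and 936 FPKM in S100A4-negative replicates 1 to 3. All 3 S100A4-positive libraries lay below the lowest S100A4-negative one, and the log2 fold change was -1.08 (SE 0.24, limma adjusted p = 0.00596), or -0.70 (limma adjusted p = 0.0455) with median-of-ratios scaling. Rpl13a, known in human monocytes for leaving the ribosome to silence inflammatory mRNAs, had 10.6, 10.7 and 15.1 FPKM in S100A4-positive libraries, against 20.4, 24.3 and 26.2 FPKM in S100A4-negative libraries. Its groups did not overlap either, the log2 fold change was -0.92 (SE 0.17, limma adjusted p = 0.00321), and the gene is among the members that share exon bases with other genes. Rpl12 and Rpl13a were called in each of the 6 fits that leave out a library.

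The other 11 large-subunit members called lower had log2 fold changes between -0.65 and -0.39, and none was called with median-of-ratios scaling. They were Rpl14, Rpl3, Rpl10a, Rpl4, Rpl5, Rpl13, Rpl29, Rpl8, Rpl6, Rpl30 and Rpl23a. Of these, Rpl5, Rpl30 and Rpl23a are among the members with more than 20% of their exon bases in another gene. Rpl3, which lies beside the peptidyl transferase centre, had 579, 815 and 798 FPKM in S100A4-positive libraries, against 1052, 1064 and 1261 FPKM in S100A4-negative libraries (log2 fold change -0.64, SE 0.18, limma adjusted p = 0.0193). Rpl5, which joins Rpl11 and an rRNA in the particle that binds MDM2 when ribosomes are not assembled, had 509, 583 and 631 FPKM in S100A4-positive libraries, against 879, 763 and 955 FPKM in S100A4-negative libraries (log2 fold change -0.59, SE 0.16, limma adjusted p = 0.013). Both genes were lower in every S100A4-positive library than in any S100A4-negative one. Rpl11, the partner of Rpl5, had 488, 816 and 839 FPKM in S100A4-positive libraries, against 759, 946 and 1113 FPKM in S100A4-negative libraries, and the groups overlapped (log2 fold change -0.42, limma adjusted p = 0.183).

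Of the 3 stalk proteins none was called, with log2 fold changes from -0.76 for Rplp1 to -0.47 for Rplp0. Rplp1 had 696, 1376 and 1392 FPKM in S100A4-positive replicates 1 to 3, against 1551, 1873 and 2211 FPKM in S100A4-negative replicates 1 to 3. Its groups did not overlap, yet its S100A4-positive replicate 1 was far below the other 2 and the limma adjusted p was 0.0604. Without S100A4-positive replicate 1 the log2 fold change was -0.42 (limma adjusted p = 0.0843), with median-of-ratios scaling -0.37 (limma adjusted p = 0.354), and without replicate 1 of both groups -0.56 (limma adjusted p = 0.0166). Of the 8 proteins of the exit tunnel and its rim, 2 were called lower (Rpl4 and Rpl23a), beside 43.4% of all tested genes. Their fold changes ran from -0.60 to -0.11, with a median of -0.36. Around the peptidyl transferase region, Rpl3 and Rpl8 were called lower and Rpl10 was not.

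Rpl10, the protein whose late joining makes the large subunit able to translate, was the only member among the 76 with a fold change above 0 on the deposited scale. It had 1039, 1407 and 1337 FPKM in S100A4-positive replicates 1 to 3, against 915, 1064 and 1197 FPKM in S100A4-negative replicates 1 to 3. The S100A4-positive replicates 2 and 3 lay above all S100A4-negative libraries, and replicate 1 lay within them. The log2 fold change was 0.25 (SE 0.19, limma adjusted p = 0.273), or 0.64 (limma adjusted p = 0.0296) with median-of-ratios scaling, and 0.65 with an adjusted p of 0.0907 in the authors' deposited table. Rpl10 lies on chromosome X (chrX:74270812-74273135, plus strand, GRCm38) and shares 6.7% of its exon bases with the small nucleolar RNA gene Snora70.

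The small subunit held 8 members called lower of its 30, with a median log2 fold change of -0.49. This share too is below the 43.4% of all tested genes called lower. Rps10, a protein of the head of the subunit, had 3.30, 4.78 and 4.19 FPKM in S100A4-positive replicates 1 to 3, against 7.83, 7.87 and 9.67 FPKM in S100A4-negative replicates 1 to 3, or 40 to 52 reads against 95 to 129. Its groups did not overlap, and the log2 fold change was -0.90 (SE 0.17, limma adjusted p = 0.00314), or -0.57 (limma adjusted p = 0.0238) with median-of-ratios scaling. Rps15a had 159, 249 and 229 FPKM in S100A4-positive libraries, against 329, 327 and 397 FPKM in S100A4-negative libraries. These groups did not overlap, and the log2 fold change was -0.74 (SE 0.19, limma adjusted p = 0.0121), or -0.36 (limma adjusted p = 0.166) with median-of-ratios scaling. Rps10 and Rps15a were called in each of the 6 fits that leave out a library, which held for no other small-subunit member.

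The other 6 were Rps18, Rps7, Rpsa, Rps3, Rps6 and Rps4x, with log2 fold changes between -0.71 and -0.55. Rps7 and Rps4x, like Rpl6 and Rpl8 of the large subunit, were called in none of the 6 fits that leave out a library. Rps6, whose phosphorylation by S6 kinase is the usual readout of mTORC1 activity, had 745, 948 and 924 FPKM in S100A4-positive libraries, against 1326, 1154 and 1383 FPKM in S100A4-negative libraries, and the groups did not overlap (log2 fold change -0.57, SE 0.17, limma adjusted p = 0.0199). With median-of-ratios scaling its log2 fold change was -0.18 and its limma adjusted p 0.414. Rps3, which lies at the mRNA entry and also serves in DNA repair, was the member called lower among 7 of the mRNA path and decoding region. These 7 ranged from -0.58 to -0.11, and 43.4% of all tested genes were called lower. Rps29, a small zinc-binding protein of the head, had 309, 696 and 732 FPKM in S100A4-positive libraries, against 400.0, 583 and 721 FPKM in S100A4-negative libraries. Its groups overlapped widely, at a log2 difference of -0.03 (SE 0.37, limma adjusted p = 0.945).

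Genes mutated in Diamond-Blackfan anaemia, a human failure of red cell production from too little of a ribosomal protein, are given here beside the 43.4% of all tested genes called lower and the 19.0% called higher. Of 9 small-subunit genes of this kind, 2 were called lower (Rps7 and Rps10) and 0 higher, with fold changes from -0.90 to -0.03. Of 8 large-subunit genes, 1 was called lower (Rpl5) and 0 higher, with fold changes from -0.59 to -0.11. Rps27a, made as a fusion with ubiquitin, had a log2 fold change of -0.20 (limma adjusted p = 0.517). Rpl38, known in mice for its part in the translation of Hox mRNAs, had -0.32 (limma adjusted p = 0.304), and Rpl22, which in mice is needed by alpha-beta T cells, had -0.50 (limma adjusted p = 0.116).

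The members called higher were both paralogs, and the genes they resemble had fold changes below 0. Rps4l had 8.52, 9.28 and 8.78 FPKM in S100A4-positive replicates 1 to 3, against 1.77, 1.43 and 2.91 FPKM in S100A4-negative replicates 1 to 3, or 120 to 132 reads against 22 to 47. All S100A4-positive libraries lay above all S100A4-negative ones, and the log2 fold change was 1.73 (SE 0.20, limma adjusted p = 3.97e-04); it was called in each of the 6 fits that leave out a library. GENCODE M21 annotates Rps4l as a transcribed processed pseudogene of 1 exon (chr6:148354656-148355598, plus strand, GRCm38). Its longest transcript was 79.9% identical to the coding sequence of Rps4x over 783 aligned bases, with no identical stretch longer than 35 bases. Rps4x itself was called lower, with 839, 1184 and 1147 FPKM in S100A4-positive libraries, against 1458, 1385 and 1757 FPKM in S100A4-negative libraries (log2 fold change -0.55, SE 0.20, limma adjusted p = 0.0424). Its call was kept in none of the 6 fits that leave out a library. With median-of-ratios scaling its log2 fold change was -0.16 (limma adjusted p = 0.537).

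Rps27l, a ribosomal protein that is a p53 target in human and mouse cells, had 54.2, 95.1 and 103 FPKM in S100A4-positive replicates 1 to 3, against 33.6, 48.0 and 53.4 FPKM in S100A4-negative replicates 1 to 3. The groups did not overlap, but S100A4-positive replicate 1 came within 1 FPKM of the highest S100A4-negative library. The log2 fold change was 0.86 (SE 0.27, limma adjusted p = 0.0276) and kept its call in 2 of the 6 fits that leave out a library. It was lost, at a limma adjusted p of up to 0.0905, without S100A4-positive replicate 2 or 3 or S100A4-negative replicate 1 or 2, and with no filter on low values (limma adjusted p = 0.0633). Rps27, its close relative, had 466, 845 and 896 FPKM in S100A4-positive libraries, against 896, 1081 and 1278 FPKM in S100A4-negative libraries, with a log2 fold change of -0.60 (limma adjusted p = 0.0931). The coding sequences of the pair (GENCODE M21, GRCm38) are shown because these genes lie on different sides of 0 and reads have to be told apart between them. They are 255 bases each, differ at 61 bases, given in capitals, and are 76.1% identical, with no identical stretch longer than 11 bases.
Rps27l: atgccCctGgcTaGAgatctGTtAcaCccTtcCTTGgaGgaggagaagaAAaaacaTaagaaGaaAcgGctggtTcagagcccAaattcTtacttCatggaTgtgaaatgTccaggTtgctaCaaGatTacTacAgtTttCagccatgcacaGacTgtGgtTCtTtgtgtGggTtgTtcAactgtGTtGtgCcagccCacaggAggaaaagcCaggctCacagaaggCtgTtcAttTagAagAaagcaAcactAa
Rps27: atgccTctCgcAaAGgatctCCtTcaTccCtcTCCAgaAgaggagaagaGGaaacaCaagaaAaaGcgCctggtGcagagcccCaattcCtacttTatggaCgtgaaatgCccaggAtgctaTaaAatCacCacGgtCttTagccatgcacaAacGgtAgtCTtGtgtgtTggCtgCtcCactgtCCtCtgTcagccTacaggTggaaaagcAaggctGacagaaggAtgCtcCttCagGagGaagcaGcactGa

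Rpl3l, the muscle form of Rpl3, was below the filter but stood apart by group. It had 1.12, 1.74 and 1.32 FPKM in S100A4-positive replicates 1 to 3, against 0.0588, 0.337 and 0.107 FPKM in S100A4-negative replicates 1 to 3, or 19 to 26 reads against 1 to 6. The groups did not overlap. With no filter on low values the log2 fold change on the log2(FPKM + 1) scale was 1.03 (SE 0.16, limma adjusted p = 0.00453), and the authors' deposited table gives 3.43 on the log2 scale of its normalized reads. Its coding sequence is 73.2% identical to that of Rpl3. The other paralogs not tested were Rpl6l, Rpl32l and Rpl39l, each at no more than 1.23 FPKM in any library, and Rpl10l, listed at 0 in all 6.

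**Figure D4:**
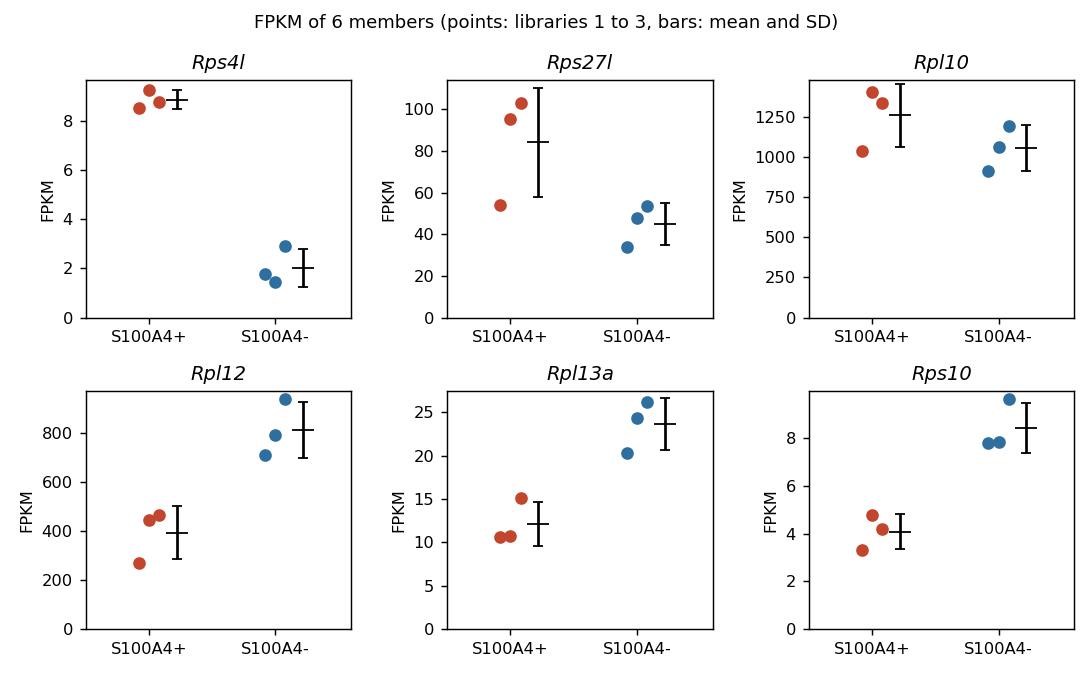
FPKM of 6 members that stand apart, with the 3 S100A4-positive libraries (red) left of the 3 S100A4-negative libraries (blue) in each panel; points are replicates 1 to 3 and bars the mean with SD. Rps4l and Rps27l are higher and Rpl12, Rpl13a and Rps10 lower in S100A4-positive libraries without overlap, and the groups overlap for Rpl10.

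Members of longer annotated length, the mean over a gene's annotated transcripts, tended to the lower fold changes. Across the 76 members, this length and log2 fold change had a Spearman's rho of -0.33, and of -0.39 without replicate 1 of both groups. This is a description across genes of the same libraries. Of the 26 longest members 13 were called lower (50%, against 42.9% of 5857 other tested genes of these lengths), of the 25 of middle length 4 (16%, against 34.2% of 664) and of the 25 shortest 4 (16%, against 34.7% of 548), with median log2 fold changes of -0.58, -0.42 and -0.44. Other tested genes of these lengths had medians of -0.32, -0.23 and -0.36.

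Most genes for making ribosomes were called lower on the deposited scale, and fewer were with median-of-ratios scaling. As deposited, 43.4% of all tested genes were called lower and 19.0% higher, and with median-of-ratios scaling 24.3% and 27.7%. Of 67 genes of rRNA processing and ribosome assembly, 47 were called lower and 1 higher, with a median log2 fold change of -0.61, and of 16 genes of the RNA polymerase I machinery 14 were called lower and 0 higher, with a median of -0.55. With median-of-ratios scaling these counts were 26 lower and 8 higher, and 4 lower and 0 higher, where 4 of 16 is close to the share of all tested genes. Nop56, a core protein of box C/D small nucleolar ribonucleoproteins, had 62.9, 71.9 and 81.8 FPKM in S100A4-positive libraries, against 163, 145.5 and 193 FPKM in S100A4-negative libraries (log2 fold change -1.20, SE 0.15, limma adjusted p = 5.73e-04). Polr1b, a catalytic-core subunit of RNA polymerase I, had 13.7, 11.7 and 11.3 FPKM in S100A4-positive libraries, against 27.6, 24.4 and 37.1 FPKM in S100A4-negative libraries (log2 fold change -1.19, SE 0.17, limma adjusted p = 0.00108). Both were lower in every S100A4-positive library. The kinases of late small-subunit maturation were split, with Riok1 at -1.37 (limma adjusted p = 7.27e-05) and Riok3 at 0.54 (limma adjusted p = 0.004).

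Other genes of translation varied. The shares of all tested genes beside them were 43.4% lower and 19.0% higher as deposited, and 24.3% and 27.7% with median-of-ratios scaling. Of 77 mitochondrial ribosomal protein genes, 31 were called lower and 2 higher, with a median of -0.33, but with median-of-ratios scaling 9 were called lower and 12 higher, with a median of 0.01. Mrpl52 (0.85) and Mrpl14 (0.83) were those called higher as deposited. Of 15 elongation factors and other TOP mRNAs, 8 were called lower, led by Npm1 (-0.90) and Eef1g (-0.82), and 1 higher, Vim (1.82), with a median of -0.48, and with median-of-ratios scaling 3 were called lower and 1 higher. Of 25 initiation factors, 8 were called lower and 1 higher, Eif4a1 (0.66), with a median of -0.10, but with median-of-ratios scaling 0 were called lower and 9 higher, with a median of 0.29. Of 9 ribosomal proteins outside the naming rule, Rpl22l1, Rps3a1 and Rack1 were called lower and none higher, but with median-of-ratios scaling none was called lower and Rpl7l1 was called higher (0.58, limma adjusted p = 0.00857). Rack1 was called in none of the 6 fits that leave out a library. Fau, which encodes a small-subunit protein as a ubiquitin-like fusion, had a log2 fold change of 0.04 (limma adjusted p = 0.915). S100A4-positive replicate 1 was the lowest of its group for 88.9% of these 9 genes and 73.3% of the TOP list, against 50.6% of the mitochondrial ribosomal protein genes.

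Regulators of ribosomal protein genes differed in both directions. They are given beside all tested genes, of which 43.4% were called lower and 19.0% higher, or 24.3% and 27.7% under median-of-ratios scaling. Of 16 genes of MYC and the p53 response, 7 were called lower and 5 higher, with a median of -0.27, or 5 lower and 6 higher with a median of 0.11 under median-of-ratios scaling. Myc, which drives ribosome production, had 31.5, 26.9 and 30.2 FPKM in S100A4-positive libraries, against 72.9, 75.4 and 101 FPKM in S100A4-negative libraries (log2 fold change -1.45, SE 0.15, limma adjusted p = 2.69e-04). Cdkn1a, a cell cycle inhibitor induced by p53, had 129, 235 and 230.5 FPKM in S100A4-positive libraries, against 12.4, 20.9 and 15.4 FPKM in S100A4-negative libraries (log2 fold change 3.51, SE 0.28, limma adjusted p = 8.39e-05). Mdm2, the p53 ubiquitin ligase that unassembled Rpl5 and Rpl11 bind, had a log2 fold change of 1.37 (limma adjusted p = 1.04e-04). Mxd4 (-1.75, limma adjusted p = 1.8e-04) and Mdm4 (-1.11, limma adjusted p = 6.03e-04) of this list were called lower as well. Phlda3 was called higher (1.88, limma adjusted p = 5.11e-04). Groups did not overlap for Myc or Cdkn1a. Of 21 genes of mTORC1 and TOP mRNA control, 7 were called lower and 3 higher, with a median of -0.27, or 3 lower and 5 higher with a median of 0.11 under median-of-ratios scaling. Eif4ebp1, a translation repressor that mTORC1 switches off, was called higher at 1.46 (limma adjusted p = 1.74e-04), as were Akt1 at 0.85 (limma adjusted p = 0.00261) and the LARP family member Larp4b at 0.42 (limma adjusted p = 0.0159). Among those called lower were Pdk1 at -1.23 (limma adjusted p = 0.00156), Tia1 at -1.085 (limma adjusted p = 0.00501) and Tial1 at -0.78 (limma adjusted p = 0.00256).

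**Figure D5:**
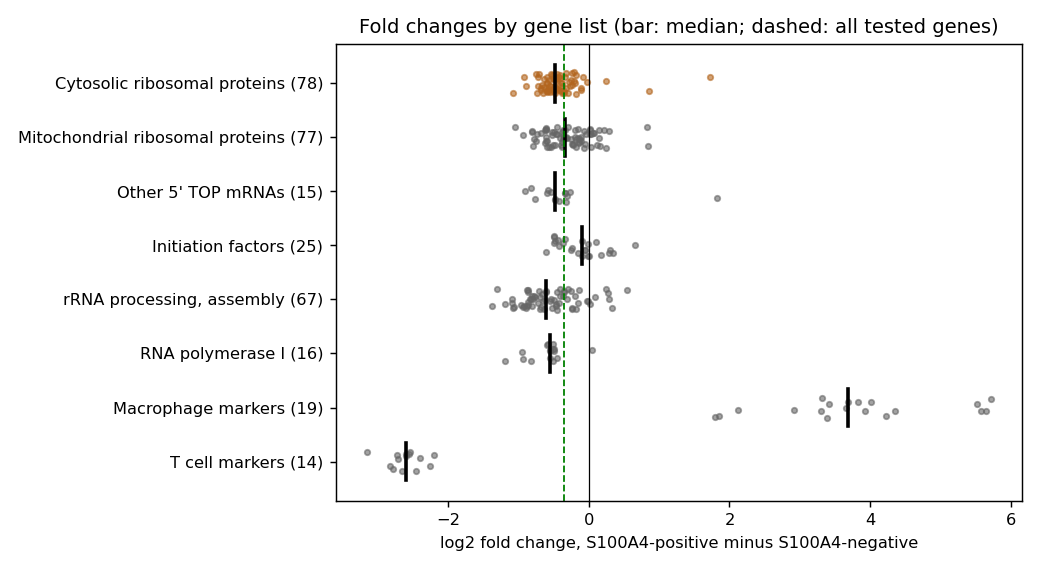
Log2 fold change (S100A4-positive minus S100A4-negative, horizontal axis) of the tested genes of 8 lists, with the number of genes in brackets; points are genes, bars are medians, and the dashed line is the median of all tested genes. The ribosomal protein genes form a narrow band near that line, with a median of -0.48 that is -0.09 under median-of-ratios scaling, while T cell markers lie far below it and macrophage markers far above it.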

How the data were processed

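FPKM for each gene and library is the deposited expression value. Per the submitters' processing notes, HISAT2 2.1.0, Cufflinks and Cuffnorm were used on mm10; which made which value is not given in the sources used here. The authors' deposited comparison table holds, per the file headers, mean normalized read counts (signal) of the groups beside a log2 ratio, a p-value and its adjusted form. Whole reads were recovered from FPKM and those means: all 135018 values above 0 (100.0%) lay within 0.02 of a whole read. Implied gene lengths were within 1% of the mean transcript length of the gene in GENCODE M21 for 97.7% of 13073 genes.

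The 13241 genes whose FPKM averaged 1 or more were tested on the log2(FPKM + 1) scale by limma 3.58.1 (R 4.3.3) with a variance trend and Benjamini-Hochberg adjustment over all 13241; a fold change on this scale understates that of low genes. Limma voom on the recovered reads was an alternative: with library totals it called 2525 genes higher and 5714 lower, and with the authors' size factors 3715 and 3156. Only the main limma test was run on simulated data, in which a small part of the genes was changed, unlike in these data. The other scalings, voom and the recovery of reads were not simulated, so this says nothing on the choice of scaling. Python 3.11.15, pandas 2.3.3, numpy 2.4.6 and matplotlib 3.10.9 were used.

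The members and gene lists were chosen with earlier results of these data known. Named genes are, per direction, the 10 most changed called members without overlap, the 5 highest and 5 lowest by level, members with a listed role, members against the majority's direction, up to 3 called genes per list and direction, and S100a4; others were chosen after their values were seen. Of the members, 1 is not reported here by name and stays in the counts.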

Additional observations from a re-analysis of the deposited data

How the results depend on the processing

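The number of members called lower was 21, beside 5741 of all 13241 tested genes. With no filter on low values it was 5, beside 5968 of 28627 tested genes. It was 3 with median-of-ratios scaling, beside 3217 of all tested genes, and 3 when voom used the size factors of the authors, beside 3156. The median log2 fold change of the members, -0.479, was -0.092 and -0.089 under these scalings, where the median of all tested genes was -0.02. Leaving out a library in turn gave 4 to 16 members called lower, 1 to 2 called higher and medians from -0.58 to -0.26. Among all tested genes these fits called 4609 to 5656 lower and 2189 to 2512 higher. The lowest count, 4, came without S100A4-negative replicate 3, where 4609 of all tested genes were called lower. There were 13 without S100A4-negative replicate 2 (5124 of all tested genes) and 13 without S100A4-positive replicate 1 (5656). With a single call higher, Rps4l was the member called. The lists beside the members had 40 genes called higher and 166 lower, and with median-of-ratios scaling 69 and 84. For all tested genes these counts were 2512 and 5741, and with median-of-ratios scaling 3669 and 3217. The replicate numbers were not taken to pair the samples, but these values do not settle whether same-numbered libraries share a source. Same-numbered libraries deviated together with correlations of 0.376, 0.083 and 0.366, against -0.379 to 0.146 for the other pairs. Each S100A4-negative library correlated best with the S100A4-positive library of its own number. S100A4-positive replicate 2, however, correlated better with S100A4-negative replicate 3 (0.146) than with its own number. With the replicate number as a block, 50 members were called lower and 2 higher, among 6188 and 2669 of all tested genes. Other pseudocounts, a filter of 5 FPKM, quantile scaling (14 lower, beside 4183 of all tested genes), no trend and array weights kept both counts within 1.5 times. The cause of these differences was not tested. Counts of reads limit Rpl24, Rps10 and the paralogs most.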

Other observations

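Genes named as ribosomal protein pseudogenes numbered 319 in the table, 166 of them above 0 in some library, and together they held 0.0631 to 0.0865% of summed FPKM in S100A4-positive libraries and 0.0928 to 0.104% in S100A4-negative libraries. Rpl38-ps2 had 120.0, 240.0 and 254 FPKM in S100A4-positive replicates 1 to 3, against 193, 246 and 280 FPKM in S100A4-negative replicates 1 to 3. Rps24-ps3 differed more between replicates than between groups. It had 149, 88.0 and 6.60 FPKM in S100A4-positive replicates 1 to 3, against 306, 109 and 10.1 FPKM in S100A4-negative replicates 1 to 3, so that replicate 1 was the highest and replicate 3 the lowest in both groups. Rps24, which gives it its name, was lowest in replicate 1 of both groups, with 261, 519 and 579 FPKM in S100A4-positive libraries, against 522, 712 and 944 FPKM in S100A4-negative libraries. How reads that match several genes were assigned is not given in the sources used here.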
